A study of Homo sapiens with 6 samples.

Results

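The genes described here encode enzymes with which the liver breaks down amino acids, makes urea and moves one-carbon units. Members were taken by symbol: a probe set (a group of short array probes read out as 1 value) belonged to the group when GEO's platform annotation gave it exactly 1 symbol and that symbol was on a list of 39 enzymes. In this way 71 of 54675 probe sets were assigned to 35 of the 39 genes, and 30 of these genes could be tested, of 13949 in all. SARDH, SDS, GLS2 and GPT2 had no such probe set and were not analysed here. For SHMT1, 2 further probe sets that carry its symbol beside another were not used.

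Total RNA came from Hep3B, an established human hepatocellular carcinoma line. The miR-17 TuD cells carry a lentiviral decoy RNA against the miR-17 family (TuD stands for tough decoy, a hairpin RNA that holds microRNAs on open binding sites), and the NC TuD cells carry a control decoy. Each group has 3 arrays. Both received lentivirus (multiplicity of infection 5, 48 hours) and then puromycin. Surviving colonies were combined 2 weeks later, so each group rests on 1 pooled line of a tumour cell type. The labels do not state separate cultures for the 3 arrays of a line, so p-values measure only the spread between arrays, which may be technical. A code in the descriptions gives 72 hr for all 6 arrays, with PLUSDOX for every miR-17 TuD array and NODOX for every NC TuD array. What these mean is not stated, and the PLUSDOX and NODOX parts cannot be told apart from the decoy.

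MicroRNAs of the miR-17 family pair with mRNAs through a shared seed, bases 2 to 8, and lower the output of those mRNAs. The arrays do not measure the mature microRNAs, so the decoy's effect on them could not be read here. Their mature sequences are shown because they are what the decoy is labelled to bind, with the seed in capitals (RefSeq, GRCh38.p14). All 6 share the same seed.
hsa-miR-17-5p: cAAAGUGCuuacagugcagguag
hsa-miR-20a-5p: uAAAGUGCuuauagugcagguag
hsa-miR-20b-5p: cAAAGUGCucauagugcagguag
hsa-miR-93-5p: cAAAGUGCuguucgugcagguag
hsa-miR-106a-5p: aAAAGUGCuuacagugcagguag
hsa-miR-106b-5p: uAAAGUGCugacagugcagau

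In hepatocytes, surplus methionine is turned into S-adenosylmethionine and homocysteine, and homocysteine is either remethylated, with betaine as one methyl donor, or passed on to cysteine. The nitrogen of other amino acids reaches the urea cycle through transaminases and glutamate, and their carbon skeletons are oxidised in mitochondria and cytosol. Many of these enzymes are nearly restricted to liver and kidney and are often lost in liver tumour lines.

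All levels are log2 expression, and every difference subtracts NC TuD from miR-17 TuD on that scale. The deposited values share a lowest value of 2.12, where 34.9% to 35.4% of probe sets lie on each array, so a change of a gene at this floor cannot be seen. The correlation across probe sets (Pearson's r) was 0.9994 to 0.9996 within groups and 0.9988 to 0.9991 between them. Of 8 measured hepatocyte markers none was at the floor, and 7 were lower in miR-17 TuD (adjusted p under 0.05 in limma, which held for 4.6% of all genes). SERPINA1 was higher by 0.13 without overlap and did not pass (adjusted p = 0.0912 in limma). The summed level of the 8 markers ran from 96.8 to 97.8 in the miR-17 TuD arrays and from 102.7 to 103.1 in the NC TuD arrays. Its part in the enzyme results was not tested. The defining markers of other cell types gave 3 of 4 endothelial genes and 2 of 2 measured leukocyte genes at the floor, while 1 of 5 fibroblast or stellate and 0 of 3 cholangiocyte genes were there. Summed levels in miR-17 TuD and NC TuD arrays were 30.1 to 31.1 and 29.9 to 30.0 for the fibroblast or stellate genes, and 36.0 to 36.2 and 35.6 to 36.1 for the cholangiocyte genes. SOX9 was lower in miR-17 TuD (-0.15, adjusted p = 0.0221 in limma), while KRT7 (0.35) and KRT19 (0.03) did not pass. The endothelial sum was 8.79 on every array and the leukocyte sum 4.24.

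Several enzymes that define the mature liver's nitrogen metabolism were at the floor in both groups. In 5 members every probe set lay within 0.05 of the lowest value on all 6 arrays, and these were not tested: MAT1A, the liver form of methionine adenosyltransferase; GNMT, which methylates glycine; OTC, which makes citrulline in the urea cycle; ARG1, the liver arginase that releases urea; and KMO, which hydroxylates kynurenine. ARG1 was at the floor on 4 probe sets and KMO on 3. The 23 untested member probe sets ran from 2.12 to 2.13. A further 4 members were tested but lay under 3. CPS1, which makes carbamoyl phosphate for the urea cycle, stood at the same value of 2.61 on 5 of 6 arrays. TDO2, which opens the tryptophan ring, stood at 2.40 on 5 of 6 arrays, with the exception, 2.66, on a miR-17 TuD array. DMGDH, the dimethylglycine dehydrogenase, held 2.48 on 4 of 6 arrays, and SHMT1, the cytosolic serine hydroxymethyltransferase, lay between 2.24 and 2.26 on its tested probe set. With levels this low and values that repeat between arrays, no difference could be read for these 4 genes.

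**Figure D1:**
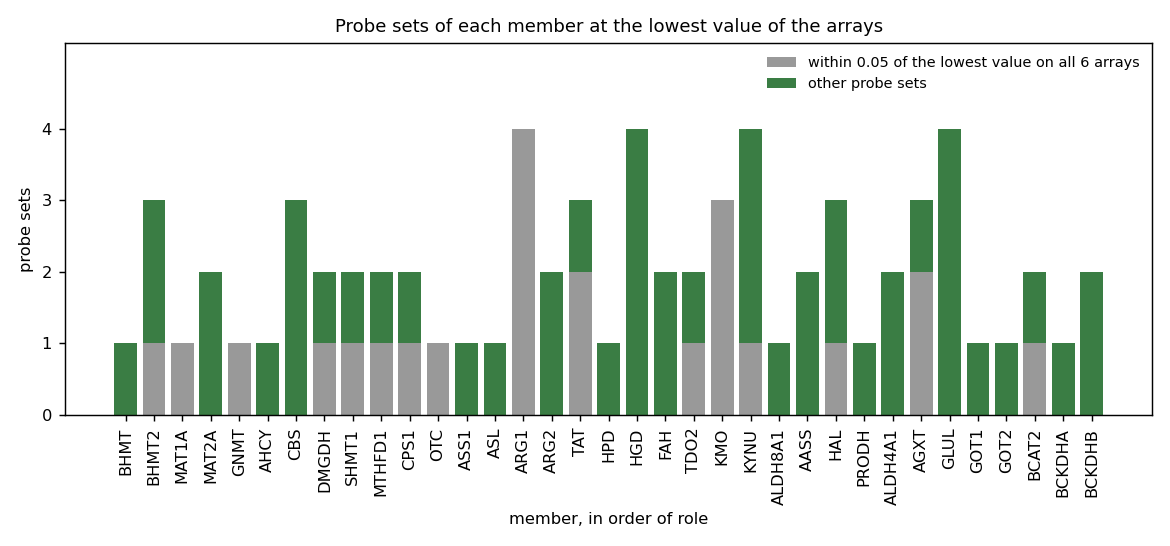
Number of probe sets (vertical axis) of each of the 35 measured members (horizontal axis, ordered by role). Grey marks probe sets within 0.05 log2 units of the lowest value on all 6 arrays and green the others; MAT1A, GNMT, OTC, ARG1 and KMO are grey throughout.

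The comparison asked which of these enzyme transcripts differ between cells with the decoy against the miR-17 family and cells with the control decoy. Among the 30 tested members, 3 rose and 3 fell in miR-17 TuD cells (adjusted p under 0.05 in limma, Benjamini-Hochberg over all 13949 genes). Across all genes 6.78% rose and 4.6% fell, 11.4% in all, against 20.0% of the members, a share that here is 6 genes. Their list was chosen with earlier results of these data known, which limits what this share can show. The members that rose were BHMT, MTHFD1 and GOT2, and those that fell were ALDH8A1, HAL and AASS. The median difference of the tested members was 0.04, and of all tested genes 0.0006. In bulk RNA, fewer cells that express a gene and less of its RNA per cell cannot be told apart. At the unadjusted level, 9 of 30 members had a p under 0.05, where 27.8% of all genes did. The groups did not overlap in 8 members, 4 higher and 4 lower, and over all genes this held for 18.3% higher and 14.7% lower, 33.0% in all. Without any 1 of the NC TuD arrays, BHMT was the one member that rose and none fell (3 to 4 were higher and 3 to 4 lower at an unadjusted p under 0.05 in limma). In the same fits 374 to 512 of all genes passed, and 20.8% to 22.6% had an unadjusted p under 0.05.

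**Figure D2:**
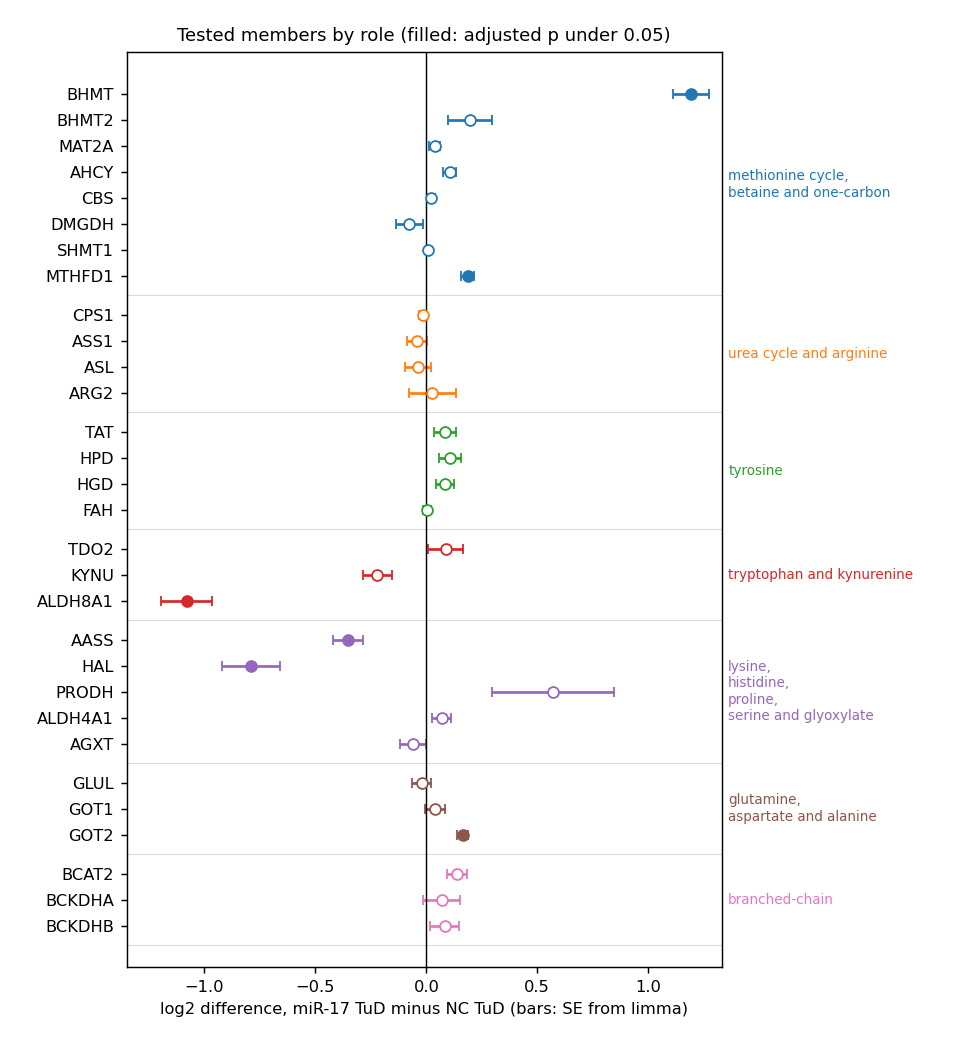
Log2 difference, miR-17 TuD minus NC TuD (horizontal axis), of the 30 tested members grouped by role, with the SE from limma as bars. Filled points passed an adjusted p of 0.05; BHMT lies at 1.19 and ALDH8A1 at -1.08, while most open points lie within 0.2 of zero.

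BHMT, the betaine-homocysteine methyltransferase that remethylates homocysteine with betaine, rose most. Its probe set 206119_at read 7.18, 7.16 and 7.29 in the miR-17 TuD arrays and 6.10, 6.11 and 5.87 in the NC TuD arrays. All miR-17 TuD values lay more than 1 log2 unit above the highest NC TuD value. The means were 7.21 ± 0.07 and 6.02 ± 0.14 (SD, n = 3 each), a difference of 1.19 (SE 0.081) or 2.28-fold, with an adjusted p of 0.00654 in limma. It passed whichever of the 6 arrays was left out and under the 10 other alternatives, with adjusted p up to 0.0463.

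BHMT2, a neighbouring gene whose product uses S-methylmethionine as methyl donor, differed by less and did not pass. Probe set 219902_at read 9.04, 9.07 and 8.79 in miR-17 TuD and 8.65, 8.81 and 8.84 in NC TuD, a difference of 0.195 (SE 0.099, adjusted p = 0.283 in limma). The groups overlapped there. On 230309_at they did not, with 8.50, 8.48 and 8.40 in miR-17 TuD and 8.23, 8.24 and 8.31 in NC TuD, and the adjusted p over all 32768 probe sets was 0.0597. In the RefSeq annotation of GRCh38.p14, DMGDH, BHMT2 and BHMT are consecutive protein-coding genes on chromosome 5, and BHMT and BHMT2 lie on the same strand with starts 42.0 kb apart. DMGDH was near the floor, as given above.

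The 250 bases before the annotated starts of BHMT and BHMT2 are shown because these neighbours had differences of 1.19 and 0.195 (RefSeq, GRCh38.p14, 5′ to 3′). Capitals mark matches, on either strand, to 5 motifs. Of 35116 such windows, 10.7% hold the TATA box, TATAAA, and 32.0% hold the CCAAT box, CCAAT. An HNF1 half-site, GTTAAT, is in 6.23%, an HNF4 site, CAAAGTCCA, in 0.325% and a C/EBP site, TTGCNNAA, in 9.05%. Counted back from the annotated start, BHMT holds TATAAA at -29, and the BHMT2 window holds none of the 5 motifs. The G and C content was 60.4% before BHMT and 81.6% before BHMT2, and the median over all windows was 58.0%.
BHMT, chr5:79111559-79111808, plus strand: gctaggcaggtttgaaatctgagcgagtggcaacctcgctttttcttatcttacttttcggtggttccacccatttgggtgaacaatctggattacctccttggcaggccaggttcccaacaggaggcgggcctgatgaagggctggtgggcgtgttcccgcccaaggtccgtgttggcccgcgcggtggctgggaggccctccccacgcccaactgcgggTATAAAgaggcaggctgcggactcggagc
BHMT2, chr5:79069517-79069766, plus strand: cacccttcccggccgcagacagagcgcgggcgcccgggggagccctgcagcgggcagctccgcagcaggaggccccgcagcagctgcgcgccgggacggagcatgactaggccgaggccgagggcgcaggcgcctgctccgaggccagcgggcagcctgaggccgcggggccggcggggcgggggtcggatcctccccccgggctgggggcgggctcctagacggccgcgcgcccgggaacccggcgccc

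MTHFD1, which carries 3 activities that interconvert folate one-carbon units in the cytosol, rose slightly. It read 12.60, 12.60 and 12.68 in miR-17 TuD and 12.44, 12.42 and 12.47 in NC TuD, with no overlap. The difference was 0.19 (SE 0.03, 1.14-fold, adjusted p = 0.0289 in limma). Leaving out miR-17 TuD replicate 3 kept the call, while leaving out any other array ended it, with adjusted p of 0.0568 to 0.108.

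The remaining methionine cycle genes did not pass. AHCY, which splits S-adenosylhomocysteine, read 13.66, 13.57 and 13.66 in miR-17 TuD and 13.55, 13.51 and 13.51 in NC TuD. Its groups did not overlap, but the difference of 0.10 had an adjusted p of 0.104 in limma, and it passed only without miR-17 TuD replicate 2 (0.13, adjusted p = 0.0383). MAT2A, the methionine adenosyltransferase of proliferating and extrahepatic cells, was well above the floor while MAT1A was at it. It differed by 0.04 on 200768_s_at (adjusted p = 0.41). On 200769_s_at it read 11.48, 11.47 and 11.49 in miR-17 TuD and 11.31, 11.40 and 11.31 in NC TuD, without overlap (difference 0.14, adjusted p over probe sets 0.0728). CBS, which commits homocysteine to cysteine synthesis, differed by 0.02 (adjusted p = 0.533), with 12.36, 12.32 and 12.37 in miR-17 TuD and 12.31, 12.34 and 12.34 in NC TuD.

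None of the urea cycle and arginine genes passed, 0 of 4 tested in limma and 0 at an unadjusted p under 0.05. ASS1, which joins citrulline and aspartate, read 12.80, 12.90 and 12.95 in miR-17 TuD and 12.95, 12.89 and 12.93 in NC TuD. ASL, which releases arginine from argininosuccinate, read 11.99, 11.91 and 12.06 in miR-17 TuD and 12.03, 11.93 and 12.11 in NC TuD. Both differed by -0.04, with adjusted p of 0.574 and 0.725. ARG2, the mitochondrial arginase, differed by 0.03 (adjusted p = 0.924), and its miR-17 TuD values of 9.16, 9.17 and 9.47 spanned the NC TuD values of 9.20, 9.16 and 9.35. Hep3B thus showed ASS1, ASL and ARG2 above the floor in both groups, with CPS1, OTC and ARG1 at or near it.

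Of the 4 tyrosine degradation genes, 0 were called in limma and 0 had an unadjusted p under 0.05 on the probe set that stands for the gene. Their differences were positive in all 4. TAT, the tyrosine transaminase, had 2 of 3 probe sets at the floor, and its tested one read 4.25 to 4.40 in miR-17 TuD and 4.18 to 4.25 in NC TuD. HPD, which makes homogentisate, read 10.44, 10.53 and 10.52 in miR-17 TuD and 10.43, 10.31 and 10.45 in NC TuD, a difference of 0.11 (adjusted p = 0.239). HGD, which opens the homogentisate ring, was measured by 4 probe sets with differences of 0.08, 0.10, 0.19 and 0.21, all short of the threshold. Unadjusted p-values in limma were 0.013 on 205221_at and 0.0385 on 214307_at. Only on 205221_at did its groups not overlap (11.41, 11.35 and 11.35 in miR-17 TuD, 11.29, 11.23 and 11.28 in NC TuD, adjusted p over probe sets 0.106). FAH, the last enzyme of the route, differed by 0.0024, with 8.64, 8.62 and 8.67 in miR-17 TuD and 8.63, 8.64 and 8.66 in NC TuD.

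ALDH8A1, a dehydrogenase of the kynurenine pathway that oxidises 2-aminomuconic semialdehyde, fell most among the members. Probe set 220148_at read 8.86, 8.70 and 9.10 in miR-17 TuD and 9.88, 10.00 and 10.02 in NC TuD. Every miR-17 TuD value lay below every NC TuD value. The means were 8.89 ± 0.20 and 9.97 ± 0.074 (SD, n = 3 each), a difference of -1.08 (SE 0.11, 2.11-fold lower, adjusted p = 0.0122 in limma). Leaving out a single NC TuD array, whichever it was, ended the call, with adjusted p of 0.0525 to 0.0615, and leaving out a miR-17 TuD array did not.

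Upstream in the same pathway no member passed. KYNU, which cleaves kynurenines, read 6.81, 6.62 and 6.80 in miR-17 TuD and 6.91, 7.01 and 6.97 in NC TuD on 217388_s_at. The groups did not overlap, but the difference of -0.22 had an adjusted p of 0.103 in limma. Its other tested probe sets gave -0.13 and 0.001, both with overlap. KMO was at the floor and TDO2 near it. Of 10 tested aromatic and kynurenine genes that are not members, none passed, with 7 positive and 3 negative differences. Among them AFMID (-0.22) and HAAO (-0.36) overlapped between groups (adjusted p = 0.404 and 0.279 in limma). AADAT was higher by 0.35 without overlap (adjusted p = 0.0884 in limma).

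HAL, the histidine ammonia-lyase that starts histidine degradation, fell on its main probe set. On 206643_at it read 8.96, 9.05 and 9.41 in miR-17 TuD and 9.88, 9.99 and 9.92 in NC TuD, a difference of -0.79 (SE 0.13, 1.73-fold lower, adjusted p = 0.0304 in limma). On 217521_at it read 5.08, 5.27 and 6.33 in miR-17 TuD and 6.77, 6.70 and 6.62 in NC TuD, a difference of -1.14 (SE 0.36, adjusted p over probe sets 0.166). The groups did not overlap on either, and miR-17 TuD replicate 3 lay nearest to the NC TuD arrays on both. Without that array the difference on 206643_at was -0.93 with an adjusted p of 0.015. The call ended without any other single array, with adjusted p of 0.0652 to 0.115.

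AMDHD1, which acts later in histidine degradation and was on the list of further pathway genes, fell as well. It read 9.89, 10.03 and 10.07 in miR-17 TuD and 10.35, 10.35 and 10.29 in NC TuD, a difference of -0.33 (SE 0.054, adjusted p = 0.0302 in limma). AMDHD1 no longer passed once miR-17 TuD replicate 2 or a single NC TuD array was left out, with adjusted p of 0.0735 to 0.114. UROC1, which acts between the 2 enzymes, was at 2.12 on all 6 arrays. HAL and AMDHD1 are consecutive protein-coding genes on chromosome 12 in the RefSeq annotation, on opposite strands with starts 53.0 kb apart.

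The windows before 3 of the genes that fell, HAL, AMDHD1 and ALDH8A1, are shown, printed and marked as for BHMT. Windows of other genes that fell, such as AASS, are not shown. HAL holds a match to the C/EBP site at -101, ALDH8A1 holds CCAAT on the other strand at -69, and the AMDHD1 window holds none of the motifs. The G and C content was 45.6% before HAL, 57.6% before AMDHD1 and 47.6% before ALDH8A1.
HAL, chr12:95996345-95996594, minus strand: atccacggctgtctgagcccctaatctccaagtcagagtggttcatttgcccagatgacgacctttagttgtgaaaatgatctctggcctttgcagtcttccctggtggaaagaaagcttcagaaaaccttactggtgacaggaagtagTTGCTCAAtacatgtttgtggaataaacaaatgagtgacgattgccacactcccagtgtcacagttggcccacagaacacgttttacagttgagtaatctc
AMDHD1, chr12:95943081-95943330, plus strand: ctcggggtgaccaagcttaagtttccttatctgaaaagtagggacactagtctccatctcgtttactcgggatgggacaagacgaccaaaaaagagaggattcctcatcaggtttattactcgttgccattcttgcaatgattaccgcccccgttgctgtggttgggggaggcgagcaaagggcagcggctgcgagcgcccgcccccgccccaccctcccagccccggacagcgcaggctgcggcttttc
ALDH8A1, chr6:134950102-134950351, minus strand: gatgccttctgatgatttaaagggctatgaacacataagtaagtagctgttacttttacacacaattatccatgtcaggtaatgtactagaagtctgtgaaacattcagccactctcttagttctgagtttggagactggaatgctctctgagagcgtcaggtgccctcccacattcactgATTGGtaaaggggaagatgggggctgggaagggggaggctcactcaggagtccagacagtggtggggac

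AASS, which carries the first steps of lysine degradation, fell on 210852_s_at, with 8.36, 8.37 and 8.56 in miR-17 TuD and 8.74, 8.78 and 8.83 in NC TuD. The groups did not overlap, and the difference was -0.35 (SE 0.067, 1.28-fold lower, adjusted p = 0.0412 in limma). On 214829_at the groups overlapped, with 5.49, 5.67 and 5.67 in miR-17 TuD and 5.67, 5.67 and 5.87 in NC TuD, and the difference of -0.13 did not pass (adjusted p over probe sets 0.463). AASS kept its call only when miR-17 TuD replicate 3 was the array left out (adjusted p = 0.021), and otherwise had adjusted p of 0.0973 to 0.138.

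**Figure D3:**
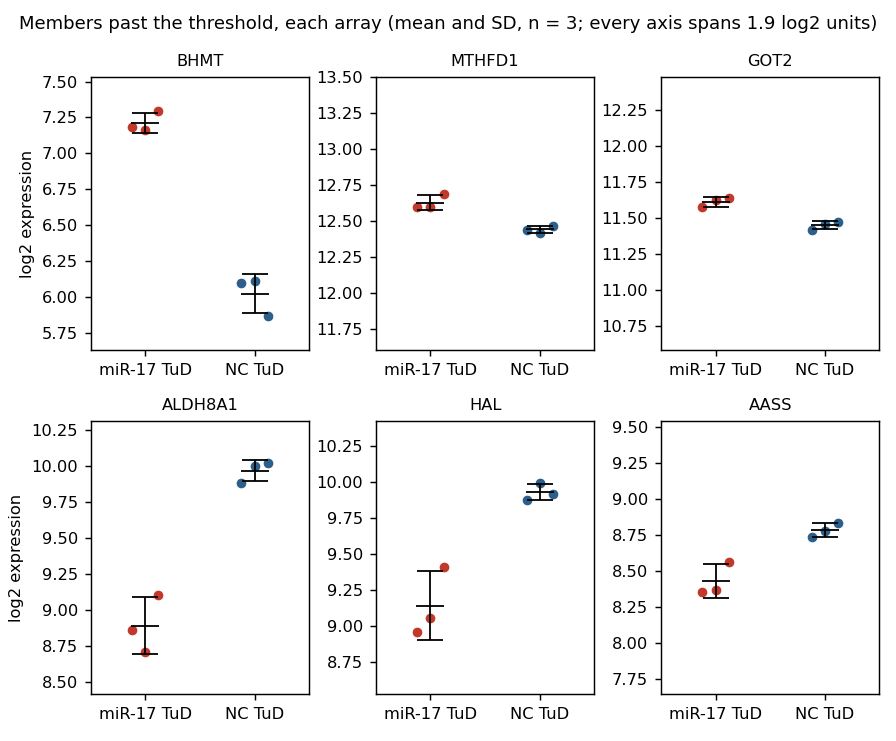
Log2 expression (vertical axis) of the 6 members past the threshold on each array, with miR-17 TuD in red on the left and NC TuD in blue on the right of each panel; bars are the mean and SD of 3 arrays, and each axis spans the same range. The groups do not overlap in any panel, and BHMT and ALDH8A1 show the widest gaps.

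PRODH, which starts proline breakdown, had a large difference but a wide spread. It read 5.93, 5.54 and 6.40 in miR-17 TuD and 5.15, 5.32 and 5.70 in NC TuD, so the groups overlapped, and the difference of 0.57 (SE 0.27) had an adjusted p of 0.262 in limma. ALDH4A1, the next enzyme of that route, differed by 0.07 (adjusted p = 0.388), with 8.66, 8.61 and 8.76 in miR-17 TuD and 8.62, 8.62 and 8.58 in NC TuD. AGXT, which detoxifies glyoxylate in liver peroxisomes, had 2 of 3 probe sets at the floor and read 4.70, 4.64 and 4.61 in miR-17 TuD and 4.71, 4.81 and 4.61 in NC TuD on the other, a difference of -0.06 (adjusted p = 0.543).

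GOT2, the mitochondrial aspartate transaminase, rose slightly. It read 11.58, 11.63 and 11.64 in miR-17 TuD and 11.42, 11.46 and 11.47 in NC TuD, a difference of 0.16 (SE 0.025, 1.12-fold, adjusted p = 0.025 in limma) with no overlap. The call stayed without miR-17 TuD replicate 1 (adjusted p = 0.0317) and ended without any other single array, with adjusted p of 0.058 to 0.0917. GOT1, its cytosolic counterpart, differed by 0.04 (adjusted p = 0.617), with 12.35, 12.23 and 12.35 in miR-17 TuD and 12.25, 12.24 and 12.33 in NC TuD. GLUL, the glutamine synthetase, gave differences of -0.02 to -0.06 on 4 probe sets, all with overlap and short of the threshold.

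The 3 branched-chain members did not pass (0 of 3 in limma, 1 at an unadjusted p under 0.05). BCAT2, the mitochondrial branched-chain transaminase, read 10.99, 11.10 and 11.11 in miR-17 TuD and 10.90, 10.89 and 10.99 in NC TuD, a difference of 0.14 with an adjusted p of 0.138. BCKDHA and BCKDHB, which encode the E1 subunits of the branched-chain ketoacid dehydrogenase, differed by 0.07 and 0.08 (adjusted p = 0.612 and 0.477). BCKDHA read 10.61, 10.35 and 10.60 in miR-17 TuD and 10.50, 10.41 and 10.44 in NC TuD, and BCKDHB read 9.25, 9.02 and 9.15 in miR-17 TuD and 9.08, 9.08 and 9.01 in NC TuD. Both pairs of groups overlapped.

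At the level of probe sets, 3 of the 48 tested member probe sets rose and 2 fell, where 3.35% of all 32768 rose and 2.48% fell, 5.83% in all. The groups did not overlap on 12 of the 48, 7 higher and 5 lower, against 13.7% higher and 13.6% lower over all probe sets, 27.3% in all. The calls were those of BHMT, MTHFD1, GOT2, ALDH8A1 and HAL, and AASS missed the threshold with an adjusted p of 0.0595. In 12 members more than 1 probe set passed the filter. Signs were opposed between probe sets of CBS, ARG2, FAH, KYNU and BCKDHB, none of them called.

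**Figure D4:**
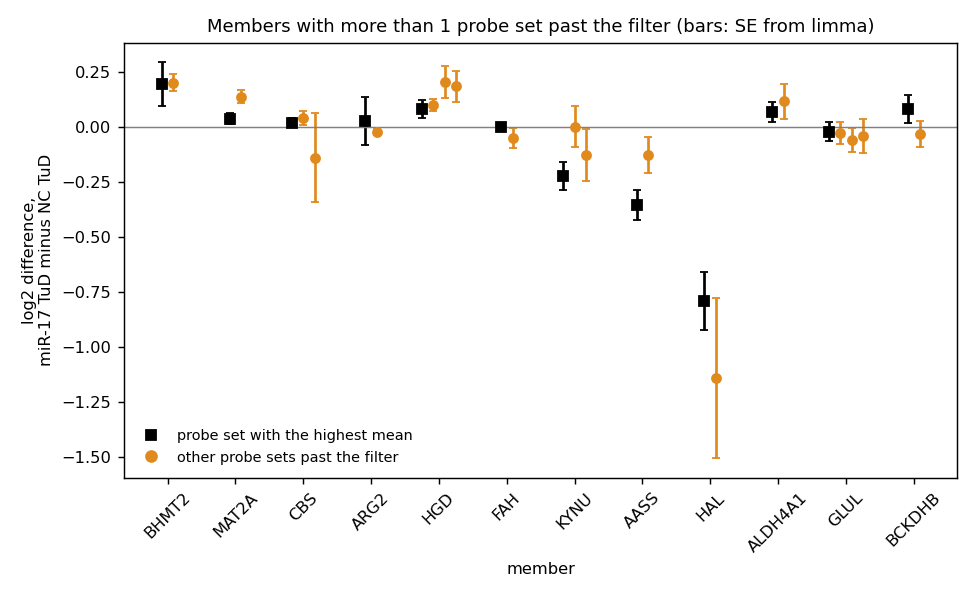
Log2 difference, miR-17 TuD minus NC TuD (vertical axis), of each tested probe set of the 12 members with more than 1, with the SE from limma as bars. Black squares are the probe sets that stand for the gene and orange circles the others; both HAL probe sets lie at -0.79 or lower, while the second AASS probe set lies at -0.13.

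A list of 89 further genes of the same pathways, also chosen with earlier results of these data known, gave 74 tested genes. Of the 74, 3 rose and 6 fell, or 12.2% against 11.4% of all genes. The median difference was -0.0003. By pathway, 4 of 14 tested branched-chain and transaminase genes fell and 1 rose, where 4.6% of all genes fell and 6.78% rose. Of these 14, differences were negative in 11 and positive in 3, and 7 had an unadjusted p under 0.05 in limma. Their groups did not overlap in 7 that were lower and 1 that was higher. In the methionine, folate and one-carbon group 2 of 23 rose and none fell, and none of 10 aromatic or 9 sulphur genes passed in limma. Among the 23, differences were positive in 9 and negative in 12. The groups did not overlap in 3 that were higher and 4 that were lower, against 18.3% and 14.7% of all genes. An unadjusted p under 0.05 was found for 3 of the aromatic and 5 of the sulphur genes, and for 27.8% of all genes. Without NC TuD replicates 1, 2 and 3 in turn, the number of genes on this list that fell was 2, 0 and 1, and none rose in limma (10 to 12 were lower and 7 to 8 higher at an unadjusted p under 0.05).

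ACADSB, the short/branched-chain acyl-CoA dehydrogenase of isoleucine breakdown, fell most. On 226030_at it read 5.68, 5.64 and 5.53 in miR-17 TuD and 6.29, 6.23 and 6.14 in NC TuD, a difference of -0.60 (SE 0.057, adjusted p = 0.0103 in limma), while 205355_at differed by -0.08 with overlap. The call ended without NC TuD replicate 2 (adjusted p = 0.0532). GLUD1, the mitochondrial glutamate dehydrogenase that links amino acid nitrogen to ammonia, read 13.19, 13.01 and 13.19 in miR-17 TuD and 13.67, 13.73 and 13.70 in NC TuD on 200946_x_at. Its difference was -0.57 (SE 0.06, 1.48-fold lower, adjusted p = 0.0122). On 200947_s_at the difference was -0.56 (adjusted p over probe sets 0.000686), and probe sets of both suffixes can bind related transcripts. The GLUD1 call on 200946_x_at was lost with each NC TuD array in turn left out (adjusted p of 0.0547 to 0.0611).

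ALDH6A1, which oxidises methylmalonate semialdehyde from valine, read 8.48, 8.50 and 8.64 in miR-17 TuD and 8.97, 9.07 and 9.06 in NC TuD, a difference of -0.49 (adjusted p = 0.0127 in limma). Its other tested probe sets differed by -0.25, -0.28 and -0.47, all without passing. The call ended without NC TuD replicates 2 or 3 (adjusted p = 0.0575 to 0.0619). DBT, the E2 subunit of the branched-chain ketoacid dehydrogenase, fell by 0.19 (adjusted p = 0.0411), and HIBADH, a dehydrogenase of valine breakdown, fell by 0.14 (adjusted p = 0.0478). Neither passed with any of the 6 arrays left out, with adjusted p of 0.0501 to 0.133 for DBT and 0.0677 to 0.155 for HIBADH. Other tested HIBADH probe sets differed by -0.15 without overlap on 231955_s_at and by 0.19 with overlap on 234452_at. Other tested DBT probe sets differed by -0.29, -0.52, -0.0029 and -0.014. Of the 10 other alternatives, 7 ended the HIBADH call and 4 the DBT call (adjusted p up to 0.704 and 0.545 in limma). MCCC2, a subunit of the leucine pathway's methylcrotonyl-CoA carboxylase and the third gene of this list that rose, was named after its value was seen. It stood at 0.10 with an adjusted p of 0.0495, and it did not pass with any of the 6 arrays left out (adjusted p of 0.0759 to 0.153) or under any of the 10 other alternatives (0.0558 to 0.147).

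MTHFD2L, a mitochondrial folate enzyme, on 238762_at read 9.55, 9.40 and 9.50 in miR-17 TuD and 9.15, 9.02 and 9.10 in NC TuD, a difference of 0.39 (adjusted p = 0.021 in limma). Its other tested probe sets were lower in level and differed by 0, 0, -0.0027, -0.01 and -0.30, all with overlap, and averaging its probe sets ended the call (adjusted p = 0.922). The call stayed without miR-17 TuD replicate 2 (adjusted p = 0.0348) and ended without any other single array, with adjusted p of 0.0537 to 0.0764. MAT2B, the regulatory subunit of the MAT2A enzyme, read 11.95, 11.92 and 11.96 in miR-17 TuD and 11.80, 11.82 and 11.80 in NC TuD. It rose by 0.13 (adjusted p = 0.0137), a call lost with each NC TuD array in turn left out (adjusted p of 0.0516 to 0.0617).

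**Figure D5:**
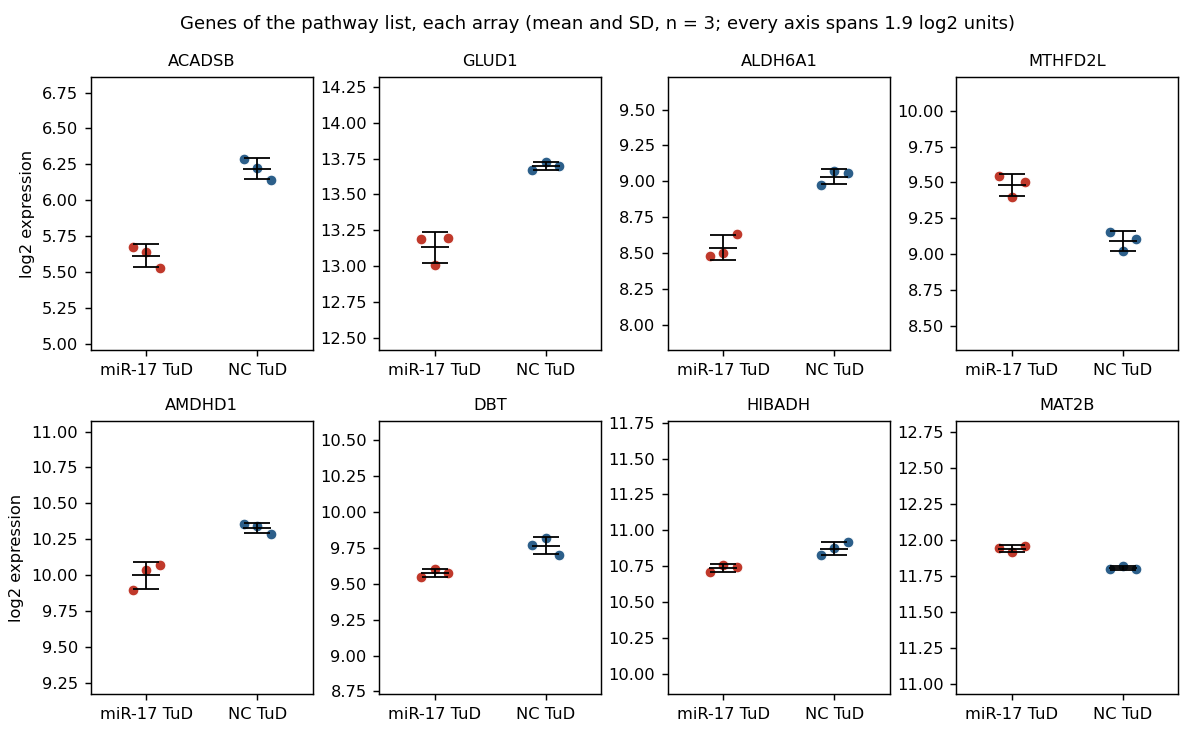
Log2 expression (vertical axis) on each array of the 8 genes of the pathway list with the largest differences past the threshold, with miR-17 TuD in red on the left and NC TuD in blue on the right; bars are the mean and SD of 3 arrays, and each axis spans the same range. MTHFD2L and MAT2B are higher in miR-17 TuD and the other 6 lower, with no overlap in any panel.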

How the data were processed

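The authors deposited log2 expression values, 1 per probe set and array, from 6 Affymetrix HG-U133 Plus 2 arrays. Per the submitters' processing notes, RMA and GCRMA were named, with no version or role. Software and build were not given in the sources used here. Such processing sets a floor and can shrink or stretch small differences. No depth applies to arrays, and their number limits the precision.

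Probe sets with exactly 1 platform symbol (41091 of 54675, 62 controls left out) were named through Entrez identifiers in RefSeq genes of GRCh38.p14, where 41037 matched. Probe sets with a mean at or under the 40th percentile (2.14) were left out, and the remaining probe set of highest mean stood for its gene. The miR-17 TuD and NC TuD groups were tested by limma 3.58.1 (R 4.3.3; lmFit, eBayes, 2-sided) over 13949 genes and 32768 probe sets. P-values were adjusted by Benjamini and Hochberg's method, with 0.05 as the threshold. The pipeline was tested on simulated data. Values of all arrays are given for members past the threshold or with an absolute difference of at least 0.5, and for others where they show the spread; of the pathway list, the 8 called genes with the largest differences are named. The members and lists were chosen with earlier results of these data known. Alternatives covered scaling, filter, probe set choice, variance model, array weights, the replicate block and leaving out each array. Probe sets with suffix s_at or x_at can bind related transcripts.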

Additional observations from a re-analysis of the deposited data

How the results depend on the processing

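Of the 6 members past the threshold, BHMT and ALDH8A1 kept their call under all 10 alternatives other than leaving out arrays, and BHMT alone also in all 6 of those. The members that rose numbered 3, and 1 with no filter; leaving out 1 array gave 1 to 2. The 3 that fell were 1 with no filter, with the mean of probe sets and with the replicate block, and 0 to 3 without 1 array; at an unadjusted p under 0.05 limma gave 3 or 4 in the fits without an NC TuD array. Member probe sets that rose numbered 3, with 1 for no filter, 0 for the replicate block, where none of all 32768 probe sets passed in limma (12 of the members' higher at an unadjusted p under 0.05, and 22.9% of all probe sets in either direction), and 0 to 2 without 1 array. Those that fell numbered 2, with 0 for no filter (5 unadjusted) and for the replicate block (4 unadjusted), 1 without s_at and x_at sets, 1 with robust eBayes and 0 to 4 without 1 array. On the pathway list the 3 rises became 5 with median centring, 1 with the mean of probe sets, 1 without s_at and x_at sets, 1 with the replicate block and 0 to 4 without 1 array (7 to 9 unadjusted where 0 or 1 was left). The 6 falls became 3 with no filter, 2 without s_at and x_at probe sets and 0 to 6 without 1 array (10 unadjusted at 0). No filter tests 19775 genes, of which 3628 had an unadjusted p under 0.05 in limma, against 3880 of 13949 with the filter. Why the counts changed between settings was not tested. Over all genes 1588 were called, against 789 with no filter, 927 without s_at and x_at sets, 822 with the replicate block and 374 to 1243 without 1 array. Over all probe sets 1910 were called, against 554 with no filter, 836 without s_at and x_at sets, 1512 with robust eBayes and 145 to 1155 without 1 array.

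AASS stood at -0.13 (adjusted p = 0.431) without s_at and x_at probe sets, and MTHFD2L had an adjusted p of 0.922 with averaged probe sets. Signs reversed for members that were not called, to values near zero; the change was widest for KYNU, at -0.22 on the probe set of highest mean. With averaged probe sets CBS stood at -0.025 and FAH at -0.024, and without s_at and x_at probe sets ARG2 at -0.023, KYNU at 0.0014 and BCKDHB at -0.029. Median centring gave CPS1 0.0059 and GLUL 0.0021, and array weights gave ARG2 -0.031 and FAH -0.0075. Leaving out 1 array spanned -0.074 to 0.0014 for ASS1, -0.083 to 0.0033 for ASL, -0.074 to 0.084 for ARG2, -0.011 to 0.014 for FAH and -0.059 to 0.019 for GLUL.

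The replicate numbers were not treated as pairs, because the labels do not say that they mark shared cultures. Deviations of same-numbered arrays from their group means correlated at 0.04 to 0.11, and 1 of these was under 0.1. Arrays with different numbers correlated at -0.10 to -0.01, so each array correlated best with its own number, a hint from the data and not from the design. Deviations cancel within a group, which links these correlations, so they cannot settle the pairing. The replicate block ended the calls of AASS (adjusted p = 0.0551) and HAL (adjusted p = 0.0773) and left BHMT, MTHFD1, GOT2 and ALDH8A1 called. On the pathway list it left ACADSB, ALDH6A1 and MTHFD2L called and ended the calls of GLUD1 (adjusted p = 0.0607), HIBADH (0.0666), MAT2B (0.0723), DBT (0.076), AMDHD1 (0.0985) and MCCC2 (0.147). With the block 4 genes of that list fell, as BCAT1 and PPM1K, named after their calls were seen, passed as well.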
